A study of Mus musculus with 8 samples.

Results

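The 5 genes examined here are Nefh, Nefm and Nefl, which code for the heavy, medium and light neurofilament proteins, Prph, which codes for the intermediate filament protein peripherin, and Tubb3, which codes for the neuronal β-tubulin. They were chosen by symbol from the authors' deposited table of cluster markers, which holds 9229 genes and 20 clusters. All 5 occur in the table. Of the 100 possible pairs of member and cluster, 76 are listed and 24 are not.

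The cells came from dorsal root ganglia, the ganglia of the body's sensory neurons, of C57BL/6 mice 21 to 30 days old, with 4 mice pooled for each sample. Living cells received an antibody to the proteasome subunit β5 and were sorted into NMP-positive and NMP-negative cells, where NMP stands for neuronal membrane proteasome. Both populations went through the same labelling, and no other genotype or treatment was used. Each population has 4 labelled samples, whose descriptions name lanes of a single library, so biological replicates are lacking. The table holds no column of samples, and no value below belongs to either population.

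Neurofilaments are heteropolymers that fill the axon and widen it, above all in large myelinated fibres. The light subunit is the core of the filament, and the medium and heavy subunits join it and carry long, heavily phosphorylated tails that project from the filament. Peripherin is typical of peripheral neurons and is prominent in small unmyelinated sensory neurons, and the neuronal β-tubulin is widely used as a marker of neurons. Antibodies to the heavy neurofilament and to peripherin are classical labels of large and small ganglion neurons.

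Promoter sequences from RefSeq (build GRCm38.p6) could be matched for Prph and Tubb3 and not for Nefh, Nefm and Nefl. Both are shown as promoters of members that were lower together in the Unknown clusters. Each line gives the 100 bases before the annotated start of the gene, on the plus strand, and capitals mark the letters TATAA.
Prph, chr15:99055074-99055173: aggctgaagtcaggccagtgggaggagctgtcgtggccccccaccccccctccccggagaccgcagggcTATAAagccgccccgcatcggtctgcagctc
Tubb3, chr8:123411453-123411552: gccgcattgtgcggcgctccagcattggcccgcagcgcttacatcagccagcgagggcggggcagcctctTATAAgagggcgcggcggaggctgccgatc
The motif TATAA, searched on the forward strand alone, begins 31 bases before the start in Prph and 30 bases before it in Tubb3. It occurs in 7.48% of the 32851 windows of this length in the table. Of the bases shown, 70% in Prph and 69% in Tubb3 are G or C, against a median of 55% over all windows. A match of letters is a description and not a measured binding site.

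The table compares each cluster with all other cells, and 3 kinds of value from it are used. The log2 fold change sets the mean level in the cluster against that in all other cells. The share of cells with the transcript, called detection here, is given for the cluster and for the other cells. A member was called higher or lower at a deposited adjusted p under 0.05. That p treats cells as replicates in clusters defined on the same expression values, so it served as a filter and not as a test. Because every cluster has its own set of other cells, fold changes were also converted to a relative level, the mean of the cluster over the mean of all cells. Both means include any constant added before the logarithm, whose size is not stated. Ratios of a scarce transcript therefore come out too small, and those of genes of unlike abundance are not on the same scale. No number of cells, depth per cell or replicate is given, so no value carries an error over samples, and neighbours in any order below cannot be separated from a spread between animals.

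By the solved weights, 40.8% of cells were in the 10 clusters with neuron names, 28.6% in the 3 Low.UMI clusters, whose name points to few transcript molecules, and 30.7% in the 7 Unknown clusters. Markers of the cell classes of the ganglion were checked in the Unknown clusters. Over all genes, 24% of listed pairs with an Unknown cluster were higher. All 8 of 8 endothelial markers were higher in Unknown.1, 8 of 8 satellite glia markers in Unknown.2, and 7 of the 7 mural markers in the table in Unknown.3. In Unknown.4 8 of 8 Schwann cell markers were higher, in Unknown.5 and Unknown.6 8 of 8 fibroblast markers each, and in Unknown 488p 8 of 8 macrophage markers. None of 10 general neuronal genes was higher in an Unknown cluster, and 65 of their 69 listed pairs there were lower, where 63.9% of all listed pairs with an Unknown cluster were lower. The named neuron clusters had 59 of 68 such pairs higher, where 50.2% of all listed pairs there were higher. The tissue is labelled as sensory neurons, but by these markers the Unknown clusters are endothelial-like, satellite-glia-like, mural-like, Schwann-like, fibroblast-like and macrophage-like.

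As pooled levels, all 5 genes separated the neuron and Low.UMI clusters from the Unknown clusters. Each was lower in each of the 7 Unknown clusters, which makes 35 of 35 pairs, where 63.9% of all listed pairs of gene and Unknown cluster were lower. Pooled over the 7 clusters, the level of Prph was 0.136 of the mean of all cells, that of Tubb3 0.144, that of Nefl 0.173, that of Nefm 0.310 and that of Nefh 0.598. The remaining 13 clusters together had 1.38, 1.38, 1.37, 1.31 and 1.18 in the same order of genes. The neuron and Low.UMI clusters therefore exceeded the Unknown clusters 10.2-fold for Prph, 9.59-fold for Tubb3, 7.90-fold for Nefl, 4.21-fold for Nefm and 1.97-fold for Nefh. Between single clusters the margin could be much smaller. Nefh was at 0.762 in CGRP-z and 0.776 in SST against 0.711 in Unknown.4, and Nefl at 0.282 in SST against 0.246 in Unknown.4. Any constant added before the logarithm (its size is not stated) makes the fold of a scarce transcript too small. Detection ran in the opposite order: the ratio between the same groups of clusters was 1.75 for Prph, 2.83 for Tubb3, 3.05 for Nefl, 5.63 for Nefm and 16.2 for Nefh.

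**Figure D1:**
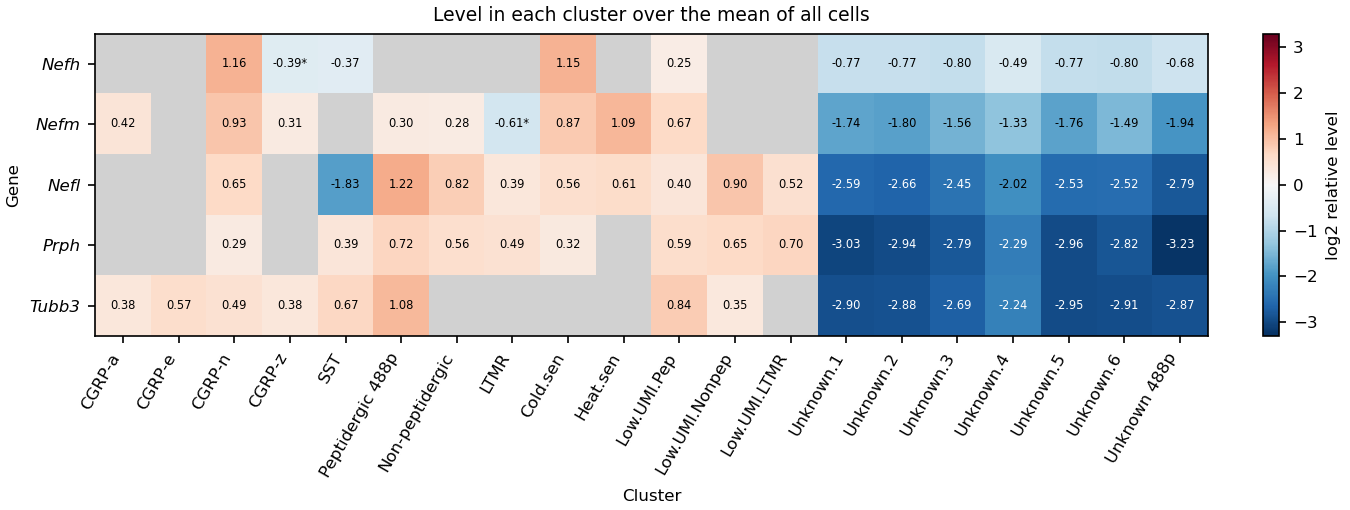
Level of each of the 5 genes (rows) in each of the 20 clusters (columns), as log2 of the cluster mean over the mean of all cells; grey cells are pairs not listed in the table, and an asterisk marks the 2 pairs not past the filter on adjusted p. The 7 Unknown clusters are below 0 for every gene, from -0.49 for Nefh in Unknown.4 to -3.23 for Prph in Unknown 488p.

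Transcripts of the 5 genes were nonetheless detected in the Unknown clusters, whose markers are those of non-neuronal cells. In the authors' deposited table Prph was found in 32.9 to 61.0% of the cells of these clusters, Tubb3 in 24.0 to 36.7%, Nefl in 19.9 to 32.7%, Nefm in 6.8 to 19.9% and Nefh in 2.1 to 5.5%. Over all cells, detection was 85.0% for Prph, 75.1% for Tubb3, 72.2% for Nefl, 56.4% for Nefm and 39.6% for Nefh. That order, Prph, Tubb3, Nefl, Nefm and Nefh, recurred in 5 of the 7 Unknown clusters. In the others Tubb3 equalled Nefl (Unknown.3, 29.8% each in the authors' deposited table) or was detected in fewer cells than Nefl (Unknown.6, 25.5% against 27.0% in the authors' deposited table). Every listed share in a neuron or Low.UMI cluster was above the highest Unknown share of the same gene. Whether free RNA from neurons reached these cells, or the cells made these transcripts themselves, was not tested.

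**Figure D2:**
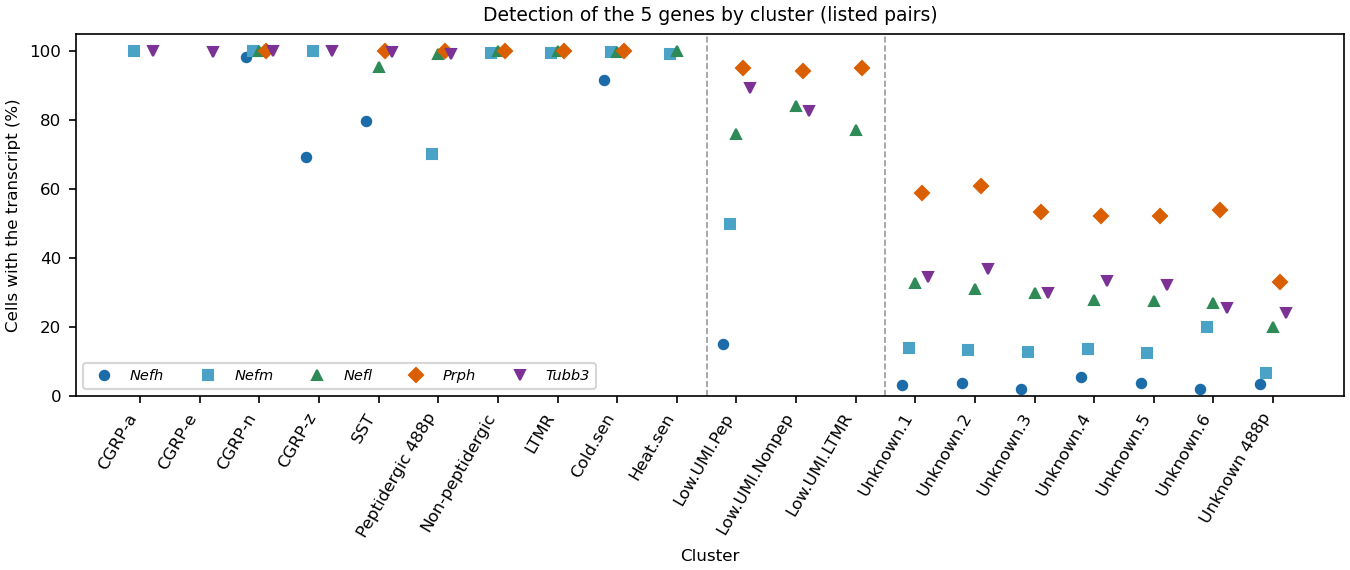
Percent of cells with the transcript (vertical axis) for each gene in each cluster where it is listed; dashed lines separate the named neuron, Low.UMI and Unknown clusters. In the named neuron clusters the shares lie between 69.2 and 100%, and in the Unknown clusters between 2.1 and 61.0%.

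The heavy subunit was called higher in the fewest clusters of the 5 genes. Of the 20 clusters, 12 list Nefh. Among these 12 it was higher in 3, CGRP-n, Cold.sen and Low.UMI.Pep, and lower in 8, SST and the 7 Unknown clusters. Over all genes and clusters, 34.6% of listed pairs were higher and 51.9% lower. In Low.UMI.Pep the call went against detection, which was 15.1% against 43.6% of other cells in the authors' deposited table. In the authors' deposited table Nefh was in 98.3% of CGRP-n cells against 37.3% of other cells, with a log2 fold change of 1.23 (adjusted p = 9.47e-134). That fold change was the 25th largest of the 1565 genes listed for CGRP-n. In Cold.sen the authors' deposited table gave 91.6% against 37.2% of cells and likewise a log2 fold change of 1.23 (adjusted p = 2.32e-139). The relative levels in these clusters, 2.23 and 2.22 times the mean of all cells, differed by less than 0.01 on the log2 scale.

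SST and CGRP-z stood below both. In the authors' deposited table Nefh was detected in 79.8% of SST cells against 37.1% of other cells, yet its log2 fold change there was -0.39 (adjusted p = 2.58e-18). For CGRP-z the authors' deposited table gave 69.2% against 39.2% of cells and a log2 fold change of -0.40, which did not pass the filter. On the relative scale Nefh in CGRP-n exceeded SST 2.87-fold and CGRP-z 2.92-fold. Nefh is not listed in 8 clusters: CGRP-a, CGRP-e, Peptidergic 488p, Non-peptidergic, LTMR, Heat.sen, Low.UMI.Nonpep and Low.UMI.LTMR. They could be given as a pool, because levels weighted by cluster size must average to that of all cells. Pooled, they had 1.03 times the mean level of all cells, with Nefh in 57.8% of their cells. The pool held 39.9% of all cells, of which Low.UMI.Nonpep held 11.6% and Low.UMI.LTMR 2.92% of all cells. Its values are therefore not those of any single cluster.

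Markers of fibre type were read in CGRP-n and Cold.sen, the listed clusters with the highest Nefh, as a description with no test between them. Of 11 markers of myelinated A-fibre neurons, 7 are listed for Cold.sen. There 4 were higher (Ntrk3, the receptor of neurotrophin-3, the channel genes Scn1a and Kcnc1, and Ldhb) and 2 lower (Etv1 and Ntrk2). Of all genes listed for Cold.sen, 53.1% were higher and 26.4% lower, so the share higher was near the background. The same 4 were also higher in Heat.sen, where Nefh is not listed, with 1 lower of the 6 listed there. In CGRP-n 1 of the 11 is listed, Ldhb, which was lower. Of 10 markers of unmyelinated C-fibre neurons, 10 are listed for Cold.sen, with 1 higher and 8 lower. In CGRP-n 8 are listed, with 4 higher and 3 lower, where 56.7% of all genes listed for CGRP-n were higher and 25.5% lower.

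Nefm, the medium subunit, was higher in 8 clusters, of which 7 were named neuron clusters, and lower in the 7 Unknown clusters. Its highest relative levels were in Heat.sen (2.13 times the mean of all cells), CGRP-n (1.90) and Cold.sen (1.83). In the authors' deposited table the log2 fold changes were 1.11 in Heat.sen (adjusted p = 7.05e-24), 0.98 in CGRP-n and 0.93 in Cold.sen, with Nefm in 99.0 to 100% of the cells of each. A gap of 0.45 on the log2 scale separated Cold.sen from CGRP-a, the next of the named neuron clusters listed, with Low.UMI.Pep (1.59 times the mean of all cells) between them. CGRP-a (log2 relative level 0.42), CGRP-z (0.31), Peptidergic 488p (0.30) and Non-peptidergic (0.28) followed close to each other.

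LTMR, the cluster named for low-threshold mechanoreceptors, was the only named neuron cluster listed for Nefm with a level below the mean of all cells. There the authors' deposited table gave detection in 99.4% of cells against 54.6% of other cells and a log2 fold change of -0.63, with a deposited adjusted p of 1. The pair is therefore not past the filter. Peptidergic 488p had the lowest detection of Nefm among the named neuron clusters listed, 70.1% of cells in the authors' deposited table. Nefm is not listed in CGRP-e, SST, Low.UMI.Nonpep and Low.UMI.LTMR, which as a pool had 1.05 times the mean level and 63.7% of cells with the transcript.

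Nefl, the light subunit and core of the filament, had the widest span over the named neuron clusters listed for it, 3.05 on the log2 scale. It was higher in 9 clusters, namely CGRP-n, Peptidergic 488p, Non-peptidergic, LTMR, Cold.sen, Heat.sen and the 3 Low.UMI clusters, and lower in 8, SST and the 7 Unknown clusters. Peptidergic 488p led, with a log2 fold change of 1.28 in the authors' deposited table (adjusted p = 2.68e-73), 99.1% of its cells positive and a relative level of 2.33. Low.UMI.Nonpep came next at 1.87. Of the other named neuron clusters listed, Non-peptidergic was at 1.77 times the mean of all cells, then CGRP-n at 1.57, Heat.sen at 1.53, Cold.sen at 1.48 and LTMR at 1.31.

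SST, the itch neurons named for somatostatin, lay far from that group. In the authors' deposited table Nefl was detected in 95.4% of SST cells, more than the 70.8% of other cells, but with a log2 fold change of -1.89 (adjusted p = 4.53e-32). Its relative level there was 0.282, and LTMR, the next of the named neuron clusters listed, lay 2.21 higher on the log2 scale. Peptidergic 488p exceeded SST 8.26-fold and CGRP-n exceeded it 5.57-fold. By fold change Nefl ranked 34th from the lowest of the 2383 genes listed for SST. Detection alone would thus have placed SST among the clusters with Nefl, while the mean level placed it nearer to the Unknown clusters, whose relative levels ran from 0.144 to 0.246. Nefl is not listed in CGRP-a, CGRP-e and CGRP-z, which as a pool had 0.978 times the mean level and 99.8% of cells positive.

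Prph had the narrowest span of the 5 over the named neuron clusters listed for it. It was higher in 9 clusters, 6 named neuron clusters and the 3 Low.UMI clusters, and lower in the 7 Unknown clusters. In each of the 6 named clusters the authors' deposited table gave detection in 100% of cells. Relative levels there ran from 1.23 in CGRP-n through Cold.sen (1.25), SST (1.31), LTMR (1.41) and Non-peptidergic (1.48) to 1.65 in Peptidergic 488p, a span of 1.34-fold against 8.26-fold for Nefl. No gap between neighbours in that order exceeded 0.16 on the log2 scale. CGRP-a, CGRP-e, CGRP-z and Heat.sen, where Prph is not listed, had as a pool 1.08 times the mean level and 99.9% of cells positive. That pool lay below each of the 6 listed clusters, so the span of Prph over all named neuron clusters is wider than 1.34-fold. The spans of Prph and Nefl also cover different sets of listed clusters.

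Tubb3 was higher in 8 clusters, the 4 CGRP clusters, SST, Peptidergic 488p, Low.UMI.Pep and Low.UMI.Nonpep, and lower in the 7 Unknown clusters. Peptidergic 488p had the highest level, 2.11 times the mean of all cells, with a log2 fold change of 1.13 in the authors' deposited table (adjusted p = 1.15e-59). Low.UMI.Pep followed at 1.79. Of the other named neuron clusters listed, SST was at 1.59, CGRP-e at 1.49, CGRP-n at 1.41, CGRP-a at 1.30 and CGRP-z at 1.30. In these 6 named neuron clusters the authors' deposited table gave detection in 99.1 to 100% of cells. The 5 clusters in which Tubb3 is not listed, Non-peptidergic, LTMR, Cold.sen, Heat.sen and Low.UMI.LTMR, had as a pool 0.930 times the mean level and 95.5% of cells positive.

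The 5 genes therefore combined differently from cluster to cluster. CGRP-n and Low.UMI.Pep had all 5 higher, where 56.7% and 32.8% of the genes listed for them were higher. In Low.UMI.Pep, however, Nefh and Nefm were detected in a smaller share of cells than among other cells. The authors' deposited table gave 15.1% against 43.6% for Nefh and 49.9% against 57.4% for Nefm. Peptidergic 488p had 4 of 4 listed members higher (Nefm, Nefl, Prph and Tubb3) against a background of 22.3%, and Cold.sen 4 of 4 (Nefh, Nefm, Nefl and Prph) against 53.1%. SST was split, with Prph and Tubb3 higher where 48.4% of its listed genes were higher, and Nefh and Nefl lower where 41.6% were lower. Over all named neuron clusters 27 of 31 listed pairs were higher and 2 lower, against 50.2% and 31.1% of all listed pairs there. The other 2 pairs were Nefh in CGRP-z and Nefm in LTMR.

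Many of these calls set neurons against the Unknown clusters, so levels were also expressed over the mean of the 13 neuron and Low.UMI clusters, a reference chosen after the data were seen. On that scale 18 of the 31 listed pairs in named neuron clusters lay above the reference and 13 below it. Of the 27 pairs called higher, 9 lay below it. Prph was below in CGRP-n (-0.17 on the log2 scale), Cold.sen (-0.15) and SST (-0.08), the first pair being the listed clusters with the highest Nefh. In SST Nefh, called lower, was below the reference as well (-0.60). Prph is not listed in CGRP-a, CGRP-e, CGRP-z and Heat.sen. As a pool these had 1.08 times the mean of all cells, against 1.23 in CGRP-n and 1.38 in the 13 clusters. That pool includes CGRP-z, where Nefh was at 0.762, so low Prph was not particular to clusters with high Nefh. Nefm was below in Non-peptidergic (-0.10), Peptidergic 488p (-0.09) and CGRP-z (-0.08), Tubb3 in CGRP-z (-0.09) and CGRP-a (-0.08), and Nefl in LTMR (-0.06). The 5 clusters in which Tubb3 is not listed had as a pool 0.930 times the mean of all cells, against 1.38 for the 13 clusters. Over the 10 named neuron clusters alone, Prph in SST and Nefl in LTMR lay above the reference (0.05 and 0.08). Prph was nearer to that reference in CGRP-n (-0.05) and Cold.sen (-0.03). The largest departures were those of Nefl in SST (-2.28), Nefm in LTMR (-0.99), Nefh in CGRP-n (0.92) and Cold.sen (0.91), Nefl in Peptidergic 488p (0.77) and Nefm in Heat.sen (0.71).

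**Figure D3:**
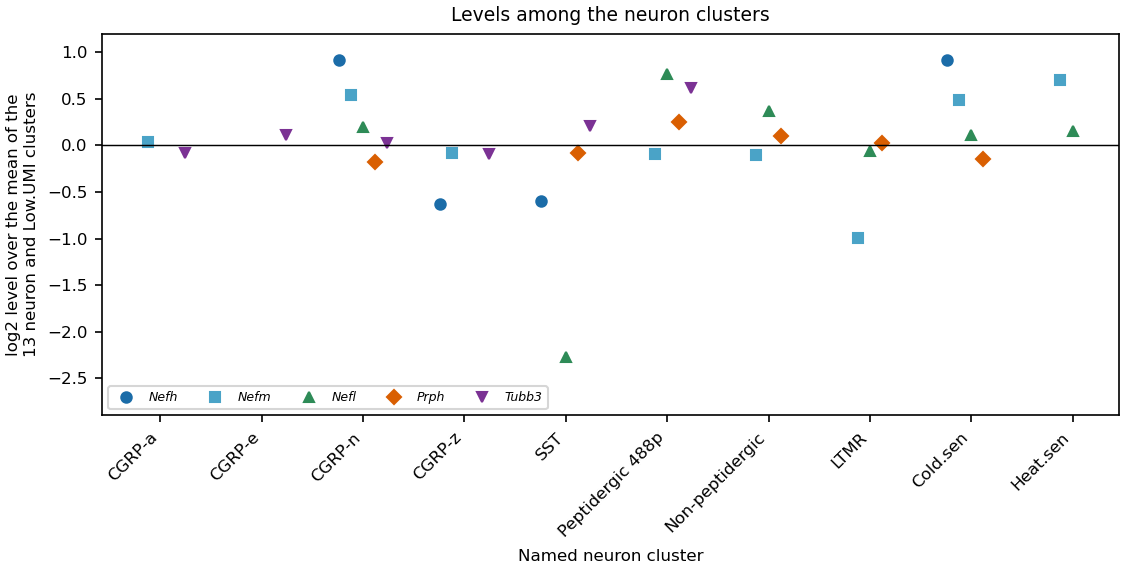
Level of each gene in the 10 named neuron clusters, as log2 of the cluster mean over the mean of the 13 neuron and Low.UMI clusters (horizontal line at 0); a missing symbol is a pair not listed. Nefh is highest in CGRP-n (0.92) and Cold.sen (0.91). Prph is below 0 in both and also in SST, where Nefh is below 0 too, and Nefl is lowest in SST (-2.28). The named neuron clusters without a symbol for Prph had, as a pool, a lower level of it than CGRP-n or Cold.sen.

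In the Low.UMI clusters 10 of 10 listed pairs were higher, against 32.3% of all listed pairs there. Low.UMI.Pep had Tubb3 at a log2 fold change of 1.04 in the authors' deposited table, the 24th largest of the 3027 genes listed for it. Low.UMI.Nonpep had Nefl at 1.08 in the authors' deposited table, with 84.2% of cells positive. Detection was lower than in the named clusters: in the authors' deposited table it was 75.8 to 84.2% for Nefl, 94.3 to 95.2% for Prph and 82.7 to 89.2% for Tubb3. In Low.UMI.Pep the authors' deposited table gave Nefh in 15.1% of cells against 43.6% of other cells with a log2 fold change of 0.30, and Nefm in 49.9% against 57.4% with 0.81. No depth per cell is given for these clusters, and the part of depth in these values was not tested. The same holds for Peptidergic 488p, where the authors' deposited table gave Nefm in 70.1% of cells. The median log2 fold change of all genes listed for Peptidergic 488p was -0.32, against -0.30 for the pooled Low.UMI clusters. SST (-0.26) and Non-peptidergic (-0.27) had negative medians too, while that of the pooled named neuron clusters was 0.26.

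Fold change and detection had opposite signs in 6 of the 76 listed pairs (7.89%), against 17.1% of all listed pairs. Besides the 2 pairs of Low.UMI.Pep these were Nefh in SST and CGRP-z, Nefl in SST and Nefm in LTMR. In these 4 detection was 24.6 to 44.8 percentage points higher than in other cells, at a lower mean level. All 6 pairs are neurofilament genes, and none is Prph or Tubb3.

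**Figure D4:**
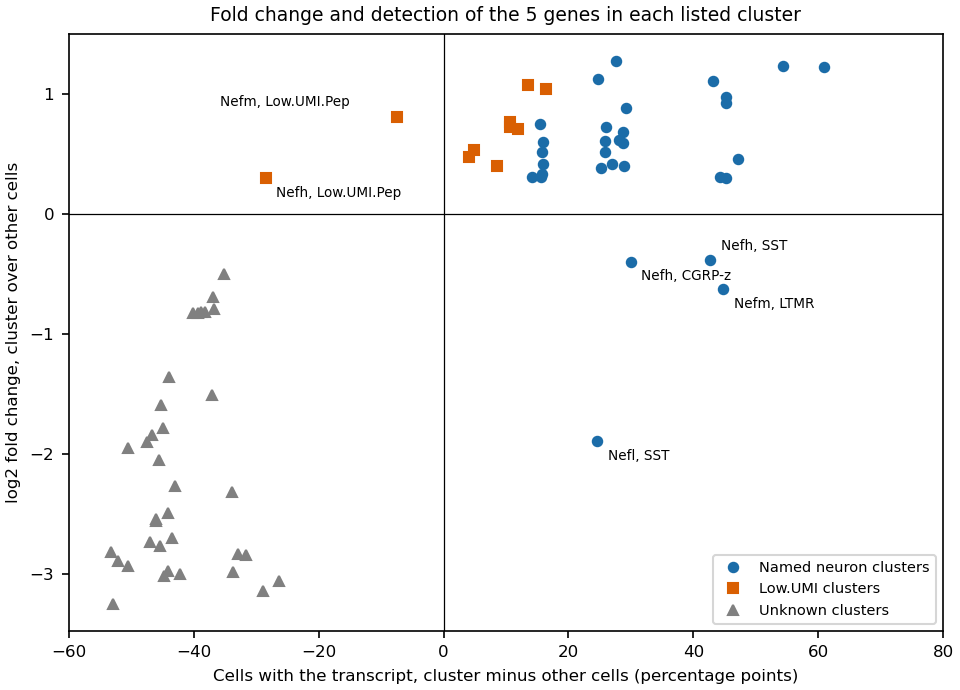
Log2 fold change over other cells (vertical axis) against the difference in percent of cells with the transcript (horizontal axis) for the 76 listed pairs of gene and cluster, coloured by class of cluster. The 6 labelled pairs lie in the quadrants where both values differ in sign, with Nefl in SST lowest at -1.89.

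Other cytoskeletal genes were followed in 7 lists, counted as pairs of gene and named neuron cluster. The background for each is 50.2% higher and 31.1% lower, with a median log2 fold change of 0.26 over all listed pairs. Of the other β-tubulin genes, 21 of 24 pairs were higher and 1 lower (median 0.41). Tubb2b, Tubb4b and Tubb2a had their largest fold changes, 1.21, 1.14 and 0.91 in the authors' deposited table, in Peptidergic 488p, the cluster in which Tubb3 was highest. The single lower pair was Tubb4a in SST, at -1.08 in the authors' deposited table, with the transcript in 60.5% of SST cells against 45.8% of other cells. Of the α-tubulin genes 12 of 20 pairs were higher and 3 lower (median 0.27). Tuba1a was at 0.97 in Peptidergic 488p and Tuba4a at -0.75 in Non-peptidergic in the authors' deposited table.

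Of the other intermediate filament genes, 10 of 28 pairs were higher and 7 lower (median -0.52). Ina, which codes for the neurofilament partner α-internexin, was higher in CGRP-z (0.66), Non-peptidergic (0.65) and LTMR (0.43) and lower in SST (-0.55) in the authors' deposited table, with 13.4% of SST cells positive. Synm, the synemin gene, reached 1.00 in LTMR in the authors' deposited table. Vim, the gene of vimentin, a filament protein of many non-neuronal cells, was at -3.00 in SST in the authors' deposited table. Lmna, which codes for nuclear lamins, was at -0.65 in Peptidergic 488p in the authors' deposited table.

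Of the genes of microtubule-associated proteins 62 of 78 pairs were higher and 8 lower (median 0.47). Map1b was at 1.30 and Map7d2 at 0.96 in CGRP-n in the authors' deposited table, and Mapt, the tau gene, at 1.08 and Dclk1 at 1.01 in CGRP-e. Of the genes of kinesin and dynein motors, which carry filament subunits and organelles along the axon, 77 of 85 pairs were higher and 3 lower (median 0.41). Kif5c reached 2.14 in LTMR, Kif5b 1.43 in Non-peptidergic and Kif1b 0.90 in CGRP-e in the authors' deposited table, while the dynein light chain gene Dynll1 was at -0.88 in Heat.sen.

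Of the cross-linker genes 17 of 22 pairs were higher and 2 lower (median 0.48). Dst, which codes for dystonin, a protein that links filaments to other parts of the cytoskeleton, was at 1.03 in CGRP-z, and Plec, the plectin gene, at 0.54 in CGRP-a in the authors' deposited table. Macf1 was at -1.01 in Peptidergic 488p in the authors' deposited table. Of the spectrin, ankyrin and adducin genes of the membrane skeleton 36 of 50 pairs were higher and 9 lower (median 0.39). Ank3 was at 1.53 and Ank1 at 0.81 in SST, Ank2 at 1.27 in CGRP-e and Add2 at 0.84 in CGRP-a in the authors' deposited table.

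**Figure D5:**
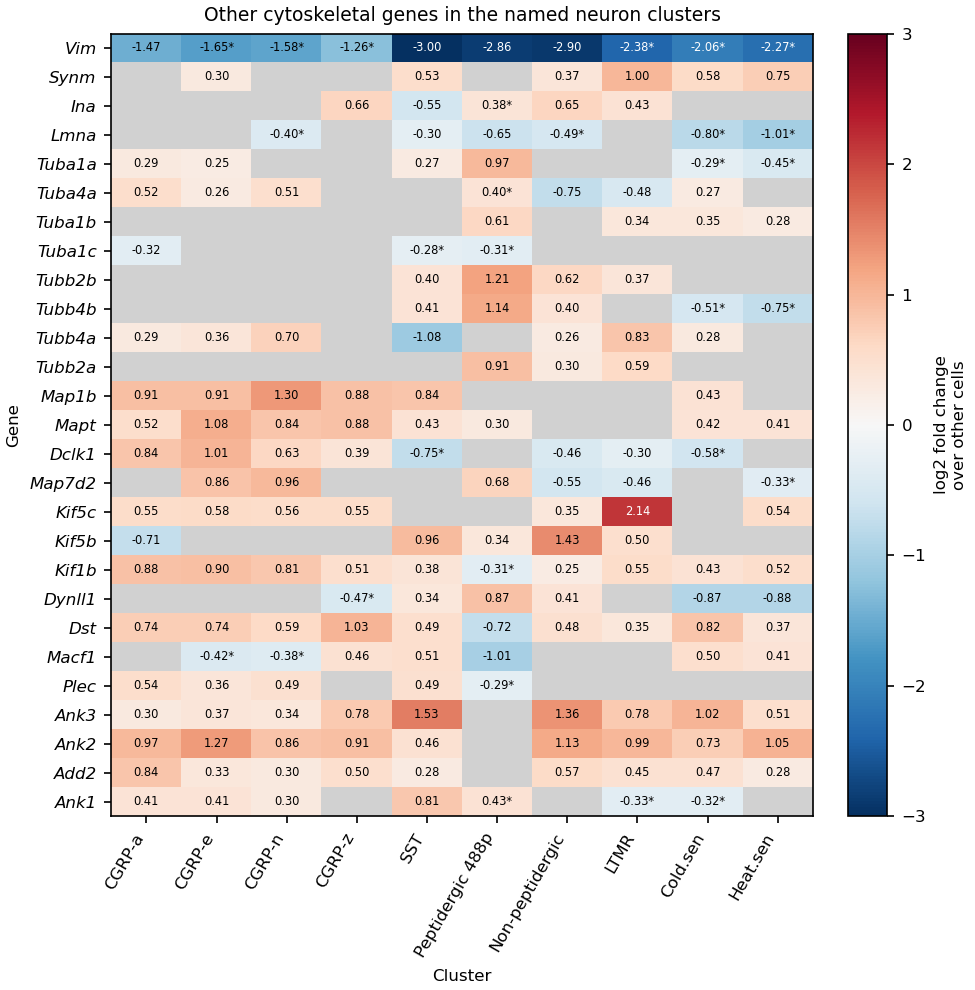
Log2 fold change over other cells, from the authors' deposited table, of up to 4 genes of each cytoskeletal list (rows) in the 10 named neuron clusters (columns); grey cells are not listed and an asterisk marks pairs not past the filter. Tubb4a (-1.08) and Ina (-0.55) are lower in SST, where Ank3 (1.53) is higher, and Tubb2b (1.21) is highest in Peptidergic 488p.

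Genes whose relative levels followed each member across clusters were ranked by Pearson's r over at least 15 clusters listed for both genes. The points share the same libraries and the same reference, so r is a description. They also include the Unknown clusters. Prph, for example, had log2 relative levels of -3.23 to -2.29 there, against 0.29 to 0.72 in the named neuron clusters listed. A high r can thus come from that split and says little about the order among neuron clusters. Prph was followed most closely by Uchl1, a ubiquitin hydrolase gene used as a neuronal marker (r = 0.999 over 16 clusters), Snrpn (0.998 over 15) and the kinesin light chain gene Klc1 (0.992 over 15), among 212 candidates. Nefl was followed by Rab3a, a gene of synaptic vesicle release (r = 0.978), Spock3 (0.966) and Basp1 (0.939), and Tubb3 by Ptprn (0.915) and Car8 (0.909). For Nefm these were Ndn (0.955), Dgkh (0.939) and Soga3 (0.939). Rab3a is not listed in SST, so its r with Nefl leaves out the named neuron cluster with the lowest listed Nefl. Nefh is listed in 12 clusters and had no candidate at that minimum. Over at least 10 clusters, a minimum chosen after the data were seen, Nefh was followed by Chgb (0.982), Sez6l2 (0.972) and Lxn (0.971), each over 10 clusters. In each case 7 of these 10 were the Unknown clusters. Chgb and Lxn are not listed in CGRP-n, where Nefh was highest, and Sez6l2 is not listed in SST or CGRP-z, where the listed neuron levels were lowest.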

How the data were processed

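Droplet single-cell 3′ RNA sequencing of the sorted cells was summarised by the authors in 1 table of cluster markers (56694 pairs of gene and cluster). Per the file headers, its deposited values are a p-value, an adjusted p-value (the p-value times 32285), a log2 fold change of a cluster over all other cells, and, for either group, the fraction in which a gene was detected. Seurat is named in the submitters' processing notes. Aligner, build, annotation, filters, normalization, clustering, doublet handling, and whether cells or nuclei were loaded: not given in the sources used here. Every listed pair has an absolute log2 fold change of at least 0.25, a p-value of at most 0.01 and a fraction of at least 10% in either group, so a pair not listed is not evidence of absence.

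Cluster weights were solved by least squares from the detection fractions of 6747 genes with differences of at least 5 percentage points (residual 0.0256 percentage points). With weight w and linear fold R, the relative level is R / (wR + 1 - w). Its weighted mean departed from 1 by at most 0.000138 in the 34 genes listed in all 20 clusters, and the procedure was tested on simulated data. Python 3.11.15, numpy 2.4.6 and pandas 2.3.3 were used.

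Members and lists were chosen with earlier results of these data known. Named are the 5 members, up to 4 genes of each cytoskeletal list (largest absolute fold change in a named neuron cluster, past the filter) and the 3 genes of most like pattern per member, leaving out predicted genes; 1 gene of like pattern is not reported here. Names ending in 488p are written with a space, and fractions as percentages. Depth is unknown, so no interval was attached. Alternatives covered call thresholds, weights, references and likeness measures.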

Additional observations from a re-analysis of the deposited data

How the results depend on the processing

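No paired analysis was possible because the table has no column of samples, and for the same reason no replicate could be left out. The 76 relative levels and the spans did not move when the cluster weights came from differences of at least 10 percentage points. A log2 fold change of at least 0.5 left 4 clusters higher for Nefm and 5 for Tubb3, and a deposited adjusted p under 1e-10 left 5 for Nefm. At a fold change of at least 1, Nefm was higher in 1 cluster, Nefl in 2, Tubb3 in 2 and Prph in 0, and Nefh was lower in 0. The other cytoskeletal lists had 235 pairs higher and 33 lower in named neuron clusters. At a fold change of at least 0.5, 107 were higher, and at 1, 15 were higher and 6 lower. At an adjusted p under 1e-10, 19 were lower, and with detection of the same sign 17.

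Spans over the named neuron clusters on the deposited fold changes were 1.63 for Nefh, 1.74 for Nefm, 3.17 for Nefl, 0.44 for Prph and 0.75 for Tubb3, against 1.55, 1.70, 3.05, 0.43 and 0.70 as reported. Ranked by detection, Heat.sen came 7 for Nefm, and Peptidergic 488p 6 for both Nefl and Tubb3. Over the mean of the 13 neuron and Low.UMI clusters the sign turned for Nefm in CGRP-z (-0.079), Peptidergic 488p (-0.087) and Non-peptidergic (-0.104), for Nefl in LTMR (-0.065) and Low.UMI.Pep (-0.050), for Prph in CGRP-n (-0.173), SST (-0.076) and Cold.sen (-0.150), and for Tubb3 in CGRP-a (-0.080), CGRP-z (-0.087) and Low.UMI.Nonpep (-0.117). Over the 10 named neuron clusters alone, Prph was at -0.050 in CGRP-n and -0.027 in Cold.sen, but Prph in SST (0.047) and Nefl in LTMR (0.082) lay above 0. That reference, and the one without the Low.UMI clusters, could not be computed for Nefh, Nefm and Tubb3, which are not listed in each Low.UMI cluster. Of the 3 genes of most like pattern, Spearman's rho shared 0 for Nefm and 1 for Nefl, the neuron and Low.UMI clusters alone shared 1 for Nefl, and a minimum of 10 clusters shared 0 for Nefm, Nefl and Tubb3. The check over the neuron and Low.UMI clusters alone could be made only for Nefl, as the other members are listed in too few of them. No depth is given, so what depth limits could not be measured.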

Other observations

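Some genes of other filament proteins and of 2 tubulins, Tubb6 and Tuba1c, were higher in Unknown clusters, where the 5 neuronal genes were lower. Of the other intermediate filament genes, 17 of 30 listed pairs there were higher and 13 lower. Of all listed pairs there, 24% were higher and 63.9% lower. Ina was lower in each of the 7 Unknown clusters, and Synm in each but Unknown.3. Of the α-tubulin genes 3 of 23 pairs were higher, and of the other β-tubulin genes 4 of 39. Vim was higher in each of the 7, from a log2 fold change of 0.54 in Unknown.1 to 2.90 in Unknown.2 in the authors' deposited table, with 71.2 to 99.2% of cells positive. Nes, the nestin gene, was higher in Unknown.1 (0.89), Unknown.3 (0.89) and Unknown.4 (0.59) in the authors' deposited table. Tubb6, a β-tubulin gene, was listed in 4 Unknown clusters and in no other cluster, and was higher in each: 1.66 in Unknown 488p, 0.86 in Unknown.6, 0.84 in Unknown.5 and 0.63 in Unknown.3 in the authors' deposited table. Tuba1c, an α-tubulin gene, was higher in Unknown.3 (1.56), Unknown 488p (1.35) and Unknown.1 (0.33) in the authors' deposited table. Nes, Tubb6 and Tuba1c were chosen for mention after their values were seen.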
